A study of Mus musculus with 9 samples.

Results

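The genes described here are 10 genes that make the acylceramides of the skin barrier and tie them to the outermost cells of the epidermis: Alox12b, Aloxe3, Sdr9c7, Elovl4, Cyp4f39, Cers3, Pnpla1, Abhd5, Ugcg and Abca12. They were chosen by gene name, as genes of this pathway, in several of which mutations are known to cause ichthyosis. All 10 were found among the 29205 genes of the table, and all 10 passed the filter on low counts in each of the 3 comparisons.

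RNA was sequenced from the back skin of male BALB/c mice aged 6 to 8 weeks, in 3 groups of 3 libraries named control, IMQ and LYS. In every group, hair was first removed from the sampled area by shaving and a depilatory cream, and skin was taken on day 13. The control mice received nothing further. The IMQ mice had 62.5 mg of imiquimod cream (5% w/w), a Toll-like receptor agonist used to set off a psoriasis-like inflammation, put on the back each day for 5 days. The LYS mice had the same cream and were given Longkui Yinxiao soup, a decoction of several botanical drugs; the labels give no dose, and the study's methods place the sequenced mice in its high-dose group, dosed by gavage. No group received the cream without imiquimod, so that imiquimod and its vehicle cannot be told apart. The libraries held between 14658645 and 19609878 counts in genes. Levels below are CPM, the counts of a gene relative to the library size scaled with edgeR's TMM factors, and a gene was called at an adjusted p under 0.05 with an absolute log2 fold change over 0.58.

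The permeability barrier of the skin is formed in the upper layers of the epidermis, where granular keratinocytes pack lipids into lamellar bodies and release them between the dying corneocytes. Acylceramides are particular to this tissue: an ultra-long fatty acid is hydroxylated at its far end, joined to a sphingoid base, and esterified there with linoleic acid. Lipoxygenases then oxidise the linoleate, which is needed for the ceramide to be bound to the protein envelope of the corneocyte.

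The libraries carried the markers of epidermis. Of the 7 markers of granular keratinocytes, 6 were present at a mean of at least 71.8 CPM in control skin, led by Krt1 at 2023 CPM. The remaining marker, Krt2, a keratin of the upper epidermis, had 12.1, 27.1 and 23.4 CPM in the control libraries and at most 0.210 CPM in any IMQ or LYS library. The tissue was whole skin, and markers of sebaceous gland, fat, hair follicle, dermis and muscle were present in the control libraries. The hair follicle keratin Krt71 had a mean of 1240 CPM in control, 0.14 CPM in IMQ and 0.085 CPM in LYS libraries. Krt25, Krt27, Krt28 and Krt73 were likewise under 1 CPM in every IMQ and LYS library.

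The first comparison, IMQ with control, asks how the barrier genes stood in inflamed skin. All 10 genes were higher in IMQ skin, from 2.09-fold for Abhd5 to 20.5-fold for Sdr9c7. All 10 were called higher, against 24.1% of the 15976 genes tested. For all 10 the lowest IMQ library was above the highest control library, which held for 34.1% of the genes tested. The median log2 fold change was 3.26 over the 10 genes and -0.06 over all genes tested. Because the samples are bulk tissue, fewer cells of a type and less RNA per cell cannot be told apart in any of these values.

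Alox12b encodes the lipoxygenase that takes the first step on the linoleate of acylceramides. Alox12b had 22.8, 19.0 and 30.0 CPM in control libraries 1, 2 and 3, then 242, 376 and 265 CPM in the IMQ libraries and 219, 162 and 82.8 CPM in the LYS libraries. The control and IMQ libraries were far apart, and the LYS libraries lay between them, with LYS 1 close to the lowest IMQ library and LYS 3 well below the other LYS libraries. The IMQ mean of 294.5 ± 71.3 CPM was 12.3-fold the control mean of 23.9 ± 5.60 CPM (SD, n = 3), a log2 fold change of 3.61 with an SE of 0.24 (edgeR adjusted p = 2.15e-05). Aloxe3 encodes the partner enzyme, which converts the hydroperoxide made by the first into an epoxyalcohol. Aloxe3 had 15.1, 12.4 and 21.2 CPM in the control libraries, 117, 180 and 183 CPM in the IMQ libraries and 95.1, 64.1 and 56.9 CPM in the LYS libraries. Here IMQ 1 was the low library of its group and LYS 1 the high library of its own, and no library of a group reached into another group. The log2 fold change of Aloxe3 in IMQ over control was 3.29 with an SE of 0.25 (edgeR adjusted p = 3.81e-05). Sdr9c7 encodes a dehydrogenase that oxidises the epoxyalcohol to the ketone form. Sdr9c7 had 30.4, 21.2 and 36.9 CPM in the control libraries, 490.3, 682 and 645 CPM in the IMQ libraries and 383, 264 and 145 CPM in the LYS libraries. It had the largest rise of the 10 genes, and its LYS libraries were spread widely below the IMQ libraries. The IMQ mean was 606 ± 102 CPM against 29.5 ± 7.90 CPM in control skin (SD, n = 3), a log2 fold change of 4.35 with an SE of 0.25 (edgeR adjusted p = 1.45e-05).

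Elovl4 encodes the elongase that makes the ultra-long fatty acids of acylceramides. Elovl4 had 609, 537 and 791 CPM in the control libraries, 1372, 1857 and 1814 CPM in the IMQ libraries and 1079, 756.5 and 549 CPM in the LYS libraries. The IMQ libraries stood above all others, while the control and LYS libraries overlapped: LYS 3 was within the control range, LYS 2 also, and LYS 1 above it. The IMQ mean of 1681 ± 269 CPM was 2.60-fold the control mean of 646 ± 131 CPM (SD, n = 3), with a log2 fold change of 1.37 and an SE of 0.22 (edgeR adjusted p = 9.75e-04). Cyp4f39 encodes the cytochrome P450 that hydroxylates the far end of these fatty acids. Cyp4f39 had 25.6, 25.6 and 39.3 CPM in the control libraries, 178, 256 and 206.5 CPM in the IMQ libraries and 155.5, 99.3 and 64.1 CPM in the LYS libraries. No group overlapped another, and LYS 1 was nearer to the lowest IMQ library than to LYS 2. Its log2 fold change in IMQ over control was 2.81 with an SE of 0.22 (edgeR adjusted p = 3.97e-05).

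Cers3 encodes the ceramide synthase that joins the ultra-long acyl chain to the sphingoid base. Cers3 had 46.3, 34.0 and 62.5 CPM in the control libraries, 359.8, 544 and 452 CPM in the IMQ libraries and 255, 213 and 131 CPM in the LYS libraries. The 3 groups did not overlap, and the order of the libraries within the IMQ and LYS groups was that of Alox12b. The IMQ mean of 452 ± 92.2 CPM was 9.49-fold the control mean of 47.6 ± 14.3 CPM (SD, n = 3), with a log2 fold change of 3.24 and an SE of 0.26 (edgeR adjusted p = 4.29e-05). Pnpla1 encodes the transacylase that puts linoleate on the hydroxylated ceramide, the step that completes an acylceramide. Pnpla1 had 14.9, 14.2 and 20.6 CPM in the control libraries, 148.5, 213 and 197 CPM in the IMQ libraries and 107, 82.3 and 55.0 CPM in the LYS libraries. All LYS libraries lay between the control and the IMQ libraries without touching either. Its log2 fold change in IMQ over control was 3.48 with an SE of 0.21 (edgeR adjusted p = 1.54e-05). Abhd5 encodes a lipid droplet protein that assists PNPLA1 in this step and also activates the triglyceride lipase encoded by Pnpla2. Abhd5 had 107, 137 and 100.4 CPM in the control libraries, 205, 267.5 and 246 CPM in the IMQ libraries and 178, 141 and 121.5 CPM in the LYS libraries. Its control and IMQ libraries were the closest of the 10 genes, and LYS 3 was below control 2. The IMQ mean of 239.6 ± 31.7 CPM was 2.09-fold the control mean of 115 ± 19.5 CPM (SD, n = 3), with a log2 fold change of 1.05 and an SE of 0.16 (edgeR adjusted p = 8.23e-04).

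Ugcg encodes the transferase that adds glucose to ceramides, the form in which they are stored in lamellar bodies. Ugcg had 68.7, 57.2 and 71.8 CPM in the control libraries, 356, 496 and 444 CPM in the IMQ libraries and 277, 259 and 175 CPM in the LYS libraries. Control libraries were tightly grouped, and no group overlapped another. Its log2 fold change in IMQ over control was 2.70 with an SE of 0.17 (edgeR adjusted p = 1.83e-05). Abca12 encodes the transporter that loads glucosylceramides into lamellar bodies and is the gene mutated in harlequin ichthyosis. Abca12 had 89.0, 60.8 and 122 CPM in the control libraries, 925, 1184 and 1112 CPM in the IMQ libraries and 620.2, 477 and 308 CPM in the LYS libraries. The groups were again separate, with control 3, IMQ 2 and LYS 1 at the top of their groups. The IMQ mean of 1074 ± 134 CPM was 11.8-fold the control mean of 90.7 ± 30.8 CPM (SD, n = 3), with a log2 fold change of 3.55 and an SE of 0.28 (edgeR adjusted p = 3.96e-05).

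**Figure D1:**
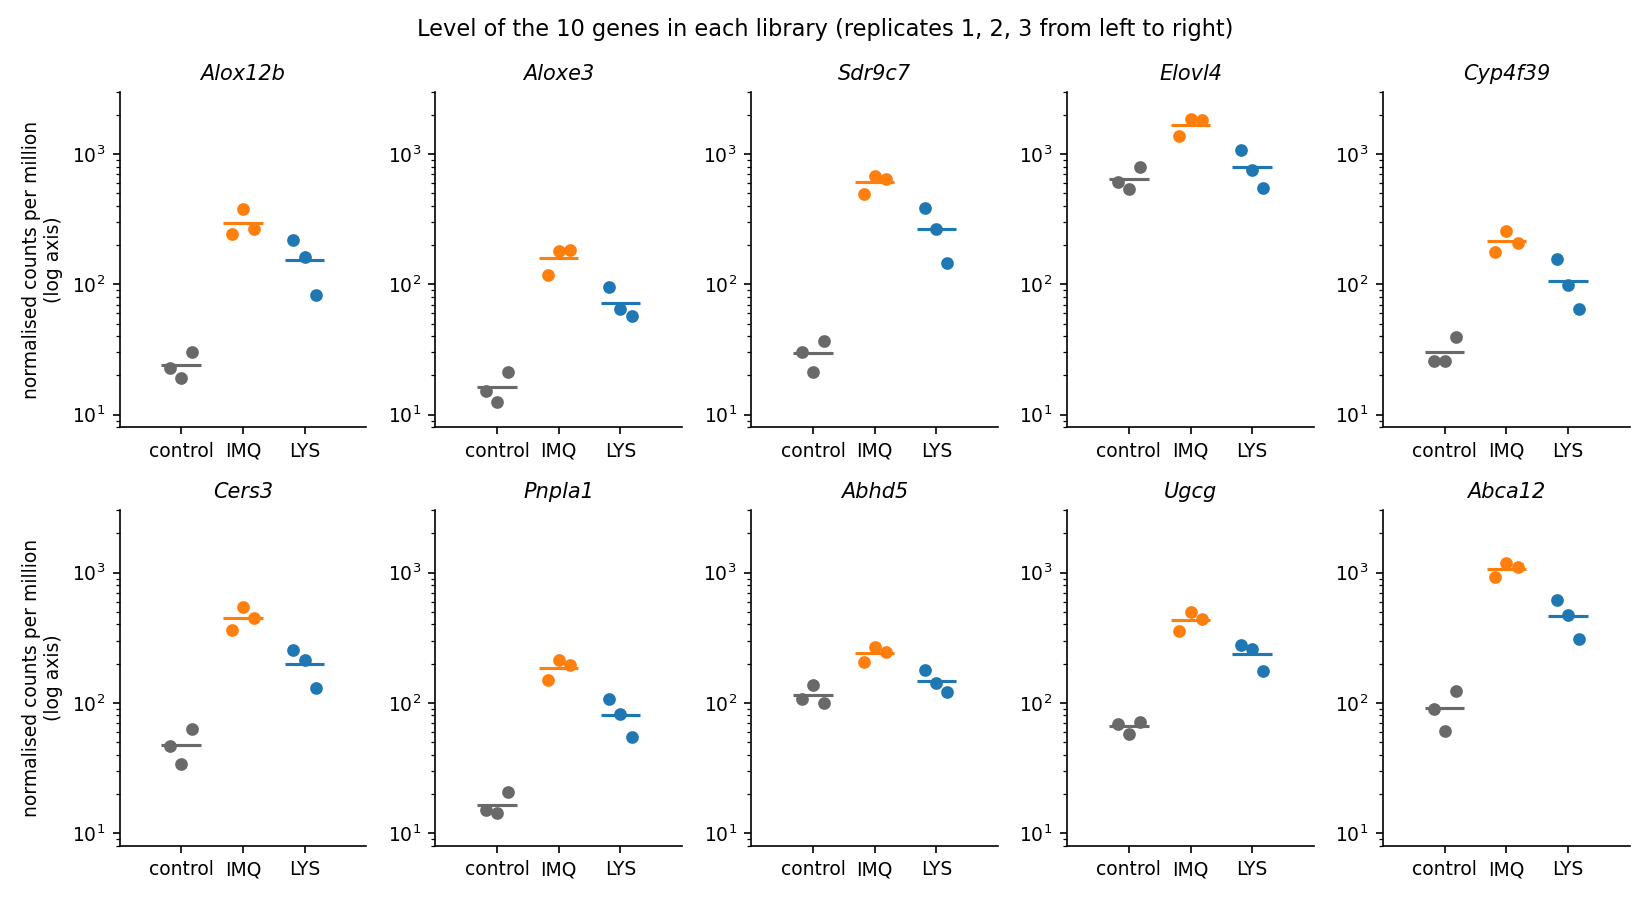
Level of each of the 10 genes in each library, as normalised CPM on a log axis; points are replicates 1, 2 and 3 from left to right, and bars are means of 3 libraries. Every IMQ point lies above every control point and every LYS point of the same gene, and the LYS points of Elovl4 and Abhd5 overlap the control points.

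The second comparison, LYS with IMQ, asks whether the barrier genes differed between inflamed skin with and without the soup. All 10 genes had lower means in LYS skin, at 43.6% (Sdr9c7 and Abca12) to 61.3% (Abhd5) of the IMQ mean, and the median log2 fold change was -1.06 over the 10 genes and 0.04 over all genes tested. No gene passed the adjusted threshold in edgeR: 0 of the 10 genes and 0 of 15460 genes tested (0%) were called in either direction. At an unadjusted p under 0.05 edgeR gave 5435 of the 15460 genes, and it gave all 10 barrier genes as lower, against 15.9% of all genes. The highest LYS library was below the lowest IMQ library for all 10, which held for 22.1% of the genes tested.

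The log2 fold changes of the 10 genes in LYS against IMQ ran from -1.14 to -0.64. Sdr9c7 and Abca12 had log2 fold changes of -1.14 (95% CI -1.92 to -0.36, edgeR adjusted p = 0.0716) and -1.14 (-1.75 to -0.52, adjusted p = 0.0591). Pnpla1 had -1.13 (95% CI -1.72 to -0.55) and Aloxe3 had -1.09 (-1.66 to -0.52), each with an edgeR adjusted p of 0.0591. No gene in this comparison had a smaller adjusted p, but many genes shared this value, including genes with smaller unadjusted p. The value therefore does not rank Pnpla1, Aloxe3 or Abca12 first among all genes tested. Cers3 had -1.12, Elovl4 -1.02, Cyp4f39 -0.95 and Ugcg -0.80, with edgeR adjusted p between 0.0598 and 0.0831. Alox12b had the interval that came closest to 0 (-0.87, 95% CI -1.67 to -0.07, edgeR adjusted p = 0.12), and Abhd5 had the smallest difference (-0.64, 95% CI -1.05 to -0.24, edgeR adjusted p = 0.0644). Every interval lay below 0, and the intervals of all 10 genes overlapped one another.

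The call on this comparison depended on the fit and on single libraries. DESeq2 called 9 of the 10 genes lower, all but Alox12b, which had a DESeq2 adjusted p of 0.0529 (5.03% of 27402 genes). An edgeR fit without a filter on low counts called 8, all but Alox12b and Abhd5 (3.53% of 27402 genes). These 27402 genes include genes of low count, so that both shares are not comparable with those of the filtered fits. A single edgeR fit of all 9 libraries called 9, again all but Alox12b (8.62% of 16392 genes). Without LYS 1, the LYS library with the highest level of each of the 10 genes, edgeR called all 10 lower (11.9% of 15895 genes). Without IMQ 1, the IMQ library with the lowest level of each of them, edgeR called 6: Aloxe3, Cers3, Pnpla1, Abhd5, Ugcg and Abca12 (5.03% of 15840 genes). Leaving out any of the other 4 libraries gave no call on any of the 10 genes.

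The third comparison, LYS with control, gives the level that the barrier genes held in treated skin against skin without imiquimod. It shares its libraries with the other comparisons, so that the values are set side by side and not counted as separate evidence. Of the 10 genes, 8 were called higher in LYS skin, against 15.1% of the 16003 genes tested, and the same 8 did not overlap with control, against 25.0% of all genes. The median log2 fold change was 2.12 over the 10 genes and -0.01 over all genes tested. Sdr9c7 was 8.95-fold the control mean (log2 fold change 3.17, SE 0.39, edgeR adjusted p = 0.00161) and Alox12b was 6.45-fold (2.70, SE 0.37, edgeR adjusted p = 0.0023). Abca12, Pnpla1, Aloxe3 and Cers3 followed with log2 fold changes of 2.37, 2.30, 2.16 and 2.08. Ugcg and Cyp4f39 had the smallest called values, 1.85 (SE 0.21) and 1.83 (SE 0.34), with edgeR adjusted p of 0.00126 and 0.00714. Elovl4 and Abhd5 were not called. Their log2 fold changes were 0.31 (95% CI -0.35 to 0.97, edgeR adjusted p = 0.436) and 0.36 (95% CI -0.09 to 0.82, edgeR adjusted p = 0.186), and their LYS and control libraries overlapped. These intervals leave room for a difference of up to 0.97 for Elovl4 and 0.82 for Abhd5 on the log2 scale.

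**Figure D2:**
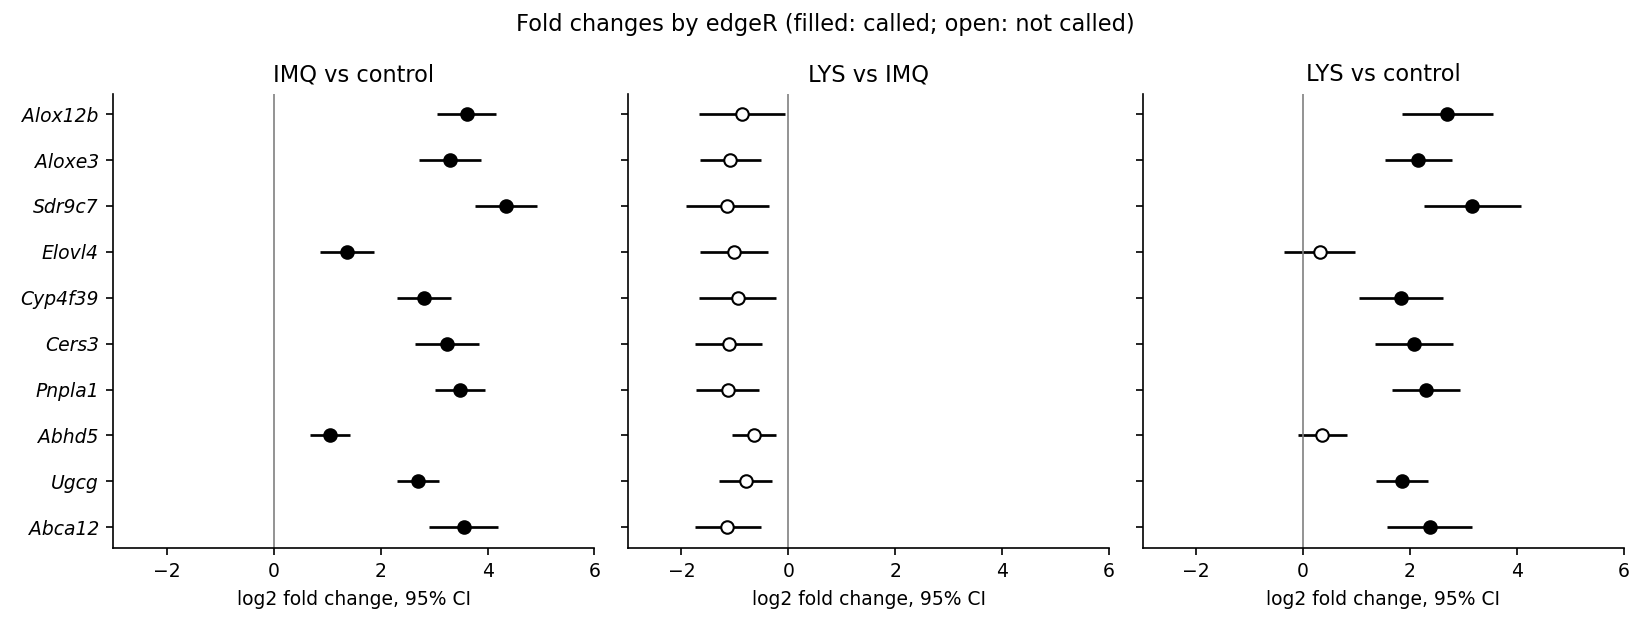
Log2 fold change of each of the 10 genes by edgeR in the 3 comparisons, with the 95% confidence interval as a line; filled points were called and open points were not, with 6 libraries in each fit. All points lie above 0 for IMQ vs control and below 0 for LYS vs IMQ, and for LYS vs control Elovl4 (0.31) and Abhd5 (0.36) are the open points.

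The libraries of a group kept nearly the same order from gene to gene. Among the control libraries, control 3 was highest and control 2 lowest for 9 of the 10 genes, and Abhd5 had the opposite order, with control 2 highest and control 3 lowest. IMQ 1 was the lowest IMQ library for all 10 genes, and IMQ 2 was the highest for 9, with IMQ 3 highest for Aloxe3. LYS 1 was the highest and LYS 3 the lowest LYS library for all 10 genes. The summed level of the 10 genes was 1029, 918 and 1296 CPM in the control libraries, 4395, 6056 and 5565 CPM in the IMQ libraries and 3368, 2519 and 1688 CPM in the LYS libraries. The LYS group was thus the most spread relative to its mean, 2525 ± 839.7 CPM against 5338 ± 853 CPM in IMQ and 1081 ± 194.5 CPM in control skin (SD, n = 3).

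Levels of different genes were compared on the deposited FPKM, which are per length. The length was that of all annotated exons of a gene joined: 2431 bases for Alox12b, 6397 for Aloxe3 and 14808 for Abca12. The order of the genes depends on these lengths, and no other length was tried. In control skin Elovl4 stood apart at 246 ± 60.2 FPKM (SD, n = 3), and it was the only gene whose libraries did not overlap those of the next gene in the order. After it came Abhd5 at 22.0 FPKM, Cers3 at 16.9, Ugcg at 14.5, Cyp4f39 at 12.2, Alox12b at 11.4, Sdr9c7 at 11.2, Abca12 at 7.09, Pnpla1 at 3.94 and Aloxe3 at 2.93 FPKM. The libraries of neighbours in this part of the order overlapped. In IMQ skin the order of FPKM levels was different below Elovl4, which was still the highest at 461 ± 40.0 FPKM (SD, n = 3). Sdr9c7 was next at 165 ± 15.6 FPKM and did not overlap Cers3 at 115 ± 15.6 FPKM, whereas Cers3 overlapped Alox12b at 100 ± 18.7 FPKM (SD, n = 3). Ugcg, Cyp4f39 and Abca12 formed an overlapping set at 68.8, 62.0 and 60.3 FPKM. Abhd5, next to Elovl4 in control skin, was now at rank 8 with 33.4 FPKM, overlapping Pnpla1 at 31.9 FPKM, and Aloxe3 was again the lowest at 20.7 FPKM. In LYS skin the FPKM levels ran from Elovl4 at 270 ± 74.9, through Sdr9c7 at 89.1 ± 35.3, to Aloxe3 at 11.6 ± 2.55 FPKM (SD, n = 3). There Elovl4 was apart from Sdr9c7 and Abhd5 was apart from Pnpla1, and all other neighbours overlapped.

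Of the 7 granular keratinocyte markers, 6 were called higher in IMQ skin, as the 10 genes were, and Krt2 was called lower, and the sum of the list was 3791, 3776 and 6520 CPM in the control libraries, 30610, 47520 and 54360 CPM in the IMQ libraries and 20850, 10040 and 12230 CPM in the LYS libraries, with Krt1 the most abundant. As with the 10 genes, IMQ 1 was the lowest IMQ library and LYS 1 the highest LYS library of this sum, but its highest IMQ library was IMQ 3 and its lowest LYS library was LYS 2, whereas the 10 genes summed were highest in IMQ 2 and lowest in LYS 3. Of the 6 basal keratinocyte markers, 5 were called higher in IMQ skin and 1, Krt15, lower (-0.78, edgeR adjusted p = 0.00396), and the sum of the list, with Krt5 the most abundant in control and Krt14 in IMQ and LYS libraries, was 2173, 1952 and 2902 CPM in control, 12460, 10600 and 10580 CPM in IMQ and 12870, 7982 and 7221 CPM in LYS libraries. The part of a changed share of epidermal cells in the levels of the 10 genes was not tested.

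Most markers of the tissue around the epidermis were called lower in IMQ skin. The 9 adipocyte markers were all called lower in IMQ skin, and their sum, with Fabp4 the most abundant in control 1 and control 2 and Cfd in the other libraries, was 8638, 12480 and 4982 CPM in control, 1618, 864 and 621 CPM in IMQ and 1610, 2269 and 3739 CPM in LYS libraries. Of 10 sebaceous gland markers 9 were called lower, with sums of 9569, 15100 and 5100 CPM in control, 1440, 483 and 417 CPM in IMQ and 1481, 1247 and 1928 CPM in LYS libraries, mostly Scd1 in each. All 6 fibroblast markers were called lower, and their sum, led by Col3a1, was 21520, 27390 and 25500 CPM in control, 10550, 4592 and 3279 CPM in IMQ and 9025, 14530 and 17440 CPM in LYS libraries. IMQ 1 was thus the highest IMQ library and LYS 1 the lowest LYS library for fibroblast markers, the reverse of their places for the 10 genes. Control 2, which was the lowest control library for 9 of the 10 genes, was the highest for the adipocyte and fibroblast sums. The sebaceous list was mixed: Scd1 and Mogat1 were highest in control 2, whereas Scd3, Awat1, Awat2, Far2 and Dgat2l6 were lowest in control 2. Mc5r and Elovl3 were lowest in control 1, and Cidea was lowest in control 3. Of 7 inner root sheath markers 6 were called lower and 1, Gata3, higher (1.03, edgeR adjusted p = 0.00837), and the sum of the list, with Krt71 the most abundant in control and Gata3 in IMQ and LYS libraries, was 3917, 2540 and 5422 CPM in control, 122, 141 and 139 CPM in IMQ and 93.8, 73.1 and 41.3 CPM in LYS libraries. Skeletal muscle markers (5 of 6 called lower, led by Acta1) summed to 10030, 9885 and 9209 CPM in control, 4088, 4183 and 1635 CPM in IMQ and 4026, 5278 and 7731 CPM in LYS libraries. Leukocyte markers (4 of 7 called higher and 1, Lyz2, lower) summed to 1399, 1008 and 867 CPM in control, 21790, 28960 and 28760 CPM in IMQ and 18270, 17970 and 8247 CPM in LYS libraries. Lyz2 made up most of this sum in control libraries, and S100a8 and S100a9, which inflamed keratinocytes also express, in IMQ and LYS libraries, so that the sums of control and of IMQ skin are of different genes. The means of S100a8, S100a9 and Itgax (24.4 and 15.4 CPM) were lower in LYS than in IMQ skin, whereas Ptprc had means of 78.1 CPM in IMQ and 172 CPM in LYS libraries, Lyz2 586.5 and 1677 CPM, Cd68 51.5 and 80.7 CPM and Cd3e 2.59 and 3.83 CPM. None of the 7 leukocyte markers was called by the edgeR fit of 6 libraries in LYS against IMQ, where 4 of the 7 log2 fold changes were above 0 and the median was 0.63 (0.04 over all genes tested); DESeq2 called 2 higher and 1 lower, and the single edgeR fit of all 9 libraries 2 higher. Of the other lists in LYS against IMQ, the fit of 6 libraries also called no marker, with a median log2 fold change of -1.57 for granular keratinocyte, -0.20 for basal keratinocyte, 0.80 for sebaceous gland, 1.38 for adipocyte, -0.75 for inner root sheath (2 tested), 1.25 for fibroblast and 0.79 for skeletal muscle markers, against -1.06 for the 10 genes. DESeq2 and the single fit, which called 9 of the 10 genes lower, each called 6 of the 7 granular markers and 1 of the 7 inner root sheath markers lower, with 4 and 3 of the 6 fibroblast and 4 and 2 of the 9 adipocyte markers higher, and no basal keratinocyte, sebaceous gland or skeletal muscle marker. No marker of these 8 lists was at 0 in every library, and their part in the levels of the 10 genes was not tested.

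**Figure D3:**
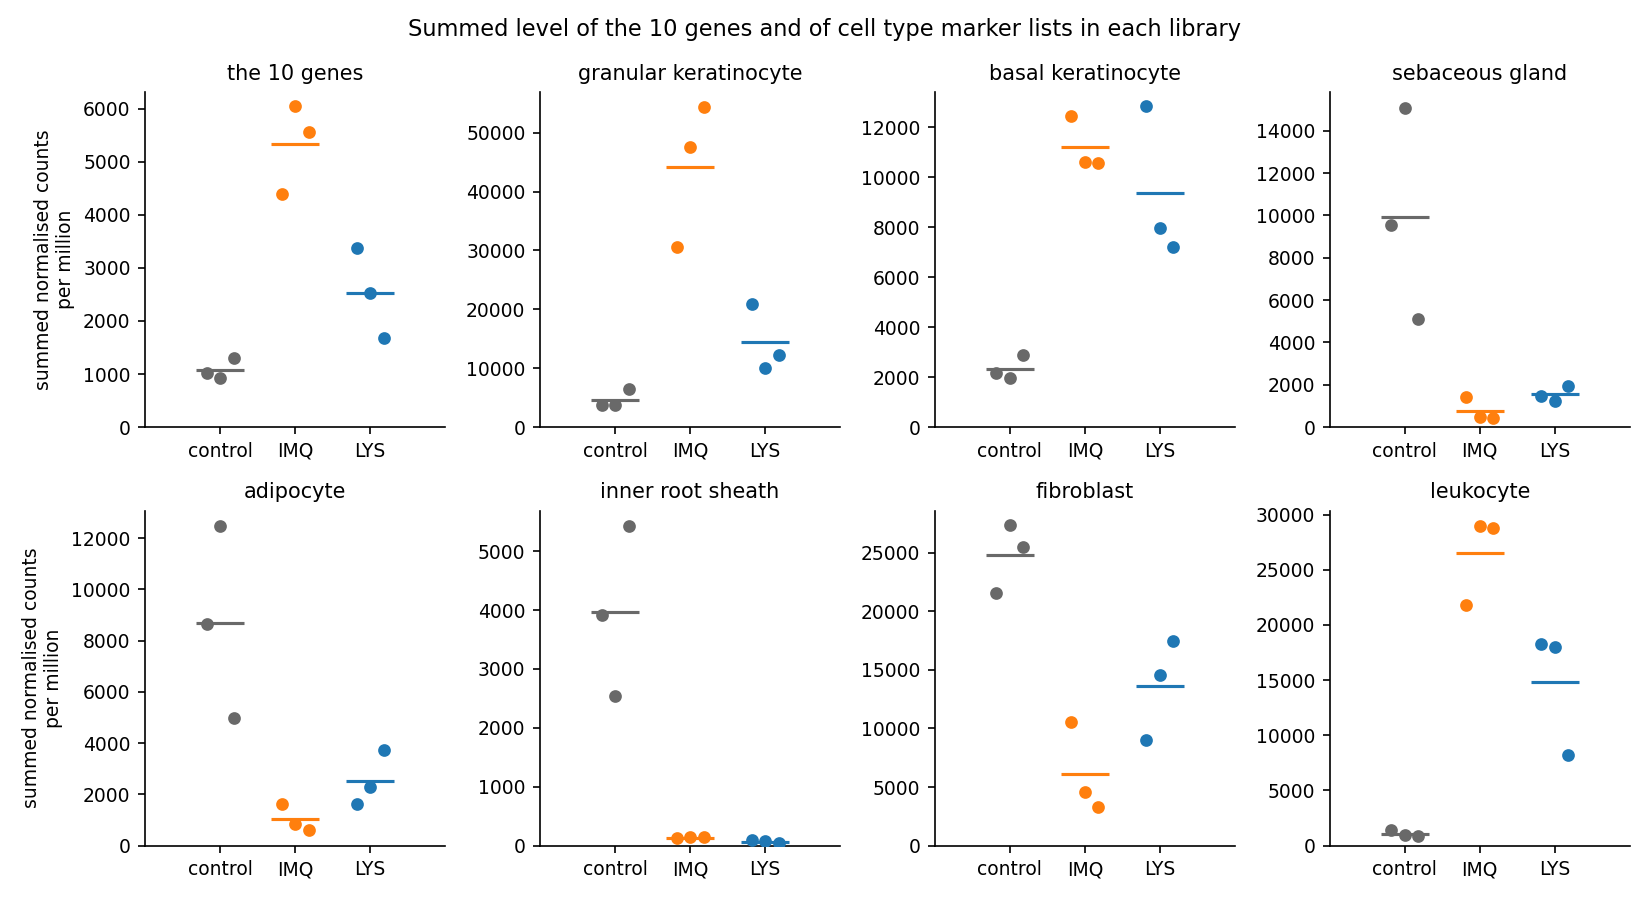
Summed normalised CPM of the 10 genes and of 7 marker lists in each library, on linear axes from 0; points are replicates 1, 2 and 3 from left to right and bars are means of 3 libraries. The 10 genes and the granular keratinocyte markers have their lowest IMQ value in IMQ 1 and their highest LYS value in LYS 1, where fibroblast markers have their highest IMQ value (10550) and their lowest LYS value (9025).

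Other genes of the pathway did not all move with the 10. Across all genes tested, 26.9% were called lower in IMQ skin and 12.9% in LYS skin against control. Of 17 genes of sphingoid base and ceramide assembly, 9 were called higher and 6 lower in IMQ skin. Degs2, which makes the hydroxylated base of skin ceramides, rose from 6.77 ± 1.19 to 201.5 ± 46.1 CPM (SD, n = 3; log2 fold change 4.89, edgeR adjusted p = 8.26e-06), and Sptlc1, a subunit of the enzyme that starts the pathway, rose by a log2 fold change of 2.13 (edgeR adjusted p = 1.81e-05). Fa2h, which hydroxylates fatty acids next to the carboxyl group, fell from 138 ± 21.8 to 9.33 ± 5.72 CPM (SD, n = 3; -3.88, edgeR adjusted p = 2.97e-04), and the low-count Cers1, another ceramide synthase, had a log2 fold change of -2.50 (edgeR adjusted p = 0.0142). Cers3 rose while Cers1, Cers2, Cers4 and Cers5 were all called lower, the last 3 with log2 fold changes of -1.70, -2.49 and -1.63, and Cers6 was not called (0.15); these other synthase genes were named after their values were seen.

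Of 14 tested genes of fatty acid elongation and activation, 5 were called higher and 6 lower. The acyl-CoA synthetase genes Acsbg1 and Slc27a4 rose by log2 fold changes of 2.81 and 2.24, whereas Elovl3 and Elovl6, elongase genes of shorter chains than those of Elovl4, fell, with log2 fold changes of -3.80 and -1.33 (edgeR adjusted p between 3.98e-05 and 4.28e-04). Elovl3 is also on the sebaceous gland list. Of 15 genes of sphingolipid transport, processing and breakdown, 9 were called higher and 1, Acer3, lower (log2 fold change -1.18). Smpd3, a sphingomyelinase gene, and Gltp, a glycolipid transfer protein gene, had log2 fold changes of 3.57 and 3.20.

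Of 13 genes of the lipid envelope and of other ichthyoses, 8 were called higher and 2 lower. Casp14, a protease of cornification, and Nipal4, an ichthyosis gene, had log2 fold changes of 5.19 and 3.73, and Ephx2 and Aldh3a2 had -2.41 and -0.99 (edgeR adjusted p between 9.14e-06 and 0.00128). Casp14 is also on the granular keratinocyte list. Of 14 lipid droplet genes listed with Abhd5, 2 were called higher and 10 lower, the opposite direction to Abhd5; Plin1 and Lipe of this list are also adipocyte markers, and the 9 adipocyte markers were all called lower. Pnpla2, the lipase gene whose product ABHD5 activates, had 737, 1106 and 509 CPM in control, 183.5, 117 and 84.0 CPM in IMQ and 176, 318 and 418 CPM in LYS libraries. Its log2 fold change in IMQ over control was -2.62 (SE 0.37, edgeR adjusted p = 5.48e-04), opposite in sign to that of Abhd5, whereas among the control libraries both genes were highest in control 2 and lowest in control 3. Pnpla5 and Plin1 had the largest falls of that list, -3.56 and -3.22, and Hilpda and G0s2, genes of inhibitors of the same lipase, rose by log2 fold changes of 2.98 and 2.25. In LYS against IMQ the edgeR fit of 6 libraries called no gene of these lists, as it called none of all genes tested. The single edgeR fit of all 9 libraries called 7 of the 17 listed genes of ceramide assembly, 6 of 15 of elongation, 9 of 15 of sphingolipid processing and 5 of 13 of the lipid envelope lower (1, 0, 0 and 1 higher), against 1413 lower and 1627 higher of all 16392 genes tested in that fit. DESeq2 called 6, 5, 8 and 6 lower (2, 1, 1 and 1 higher), against 1379 lower and 1934 higher of 27402. Of the 14 lipid droplet genes the single fit called 0, and DESeq2 2 higher and 1 lower.

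Alox12b and Aloxe3 lie next to each other on the plus strand of chromosome 11 (GRCm38, GENCODE M21), Aloxe3 at chr11:69125896-69149115 and Alox12b at chr11:69156989-69169792, with 7873 bases between them. The next gene after Alox12b is Alox8, another lipoxygenase gene, at chr11:69183932-69197843 on the minus strand. Alox8 had 2.90, 1.85 and 5.46 CPM in the control libraries, 205, 525 and 325 CPM in the IMQ libraries and 256, 178 and 7.58 CPM in the LYS libraries. IMQ 2 was the highest and IMQ 1 the lowest of the IMQ libraries for Alox8 as for Alox12b, and LYS 3 was near the control level for Alox8 but not for Alox12b. Alox8 was called higher in IMQ skin (log2 fold change 6.68, SE 0.52, edgeR adjusted p = 3.84e-05). It was not called in LYS against IMQ skin (log2 fold change -1.21, SE 0.98, edgeR adjusted p = 0.402). On the other side of the pair, Hes7 had at most 0.230 CPM in any library, and Per1 had 99.9, 125.5 and 105 CPM in control against 62.8, 48.5 and 60.3 CPM in IMQ libraries. The rise of the pair was therefore not shared by every gene around it. Of the 6 genes listed as other lipoxygenases, 1 of which, Alox5ap, encodes an activating protein and not a lipoxygenase, 2 were called higher in IMQ skin, Alox8 and Alox12 (1.77), and 1 was called lower, Alox12e (-2.95).

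The other members lie on several chromosomes: Abca12 at chr1:71242276-71414910, Ugcg at chr4:59189257-59222833, Cers3 at chr7:66743504-66823691 and Sdr9c7 at chr10:127898518-127911761. Elovl4 at chr9:83778692-83806277 and Abhd5 at chr9:122351608-122381524 share a chromosome, as do Pnpla1 at chr17:28858411-28890309 and Cyp4f39 at chr17:32452723-32493320. Exons of Pnpla1 and Abhd5 overlap an antisense gene, and as the counting is not stated to use strand, reads of the overlap cannot be told apart. The counts given to these antisense genes were small: at most 13 for Pnpla1os and at most 93 for A730085K08Rik in any library, against at least 306 for Pnpla1 and 2059 for Abhd5.

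For each of the 10 genes, the genes with the most similar profile over the 9 libraries were found by the root mean square (RMS) difference of log2(CPM + 1), each gene centred on its own mean, among 16391 other genes. Alox12b was nearest to Tmem125 (RMS 0.10), Tgm1 (0.10) and Nbeal2 (0.12). Tgm1 encodes the transglutaminase that crosslinks the corneocyte envelope, and it had 36.5 CPM in control, 468 in IMQ and 231 in LYS skin on average. Aloxe3 was nearest to Mapk13 (RMS 0.12), Klk5 (0.13), a kallikrein gene of the stratum corneum, and Prom2 (0.13). Sdr9c7 was nearest to Epn3 (RMS 0.11), Endou (0.16) and Vstm5 (0.17). Cers3 and Pnpla1 shared a neighbour, Prdm1, the gene of a transcriptional repressor that acts in keratinocyte differentiation, at an RMS of 0.07 and 0.10. Their other neighbours were Prom2 (0.10) and Myo5b (0.12) for Cers3, and Slc6a20a (0.09) and Blmh (0.11), a hydrolase that takes part in the breakdown of filaggrin, for Pnpla1. Abca12 was nearest to Nipal4 (RMS 0.08), Tmprss11e (0.13) and Lypd5 (0.13). Cyp4f39 was nearest to Inava (RMS 0.10), Tuba8 (0.12) and Map3k9 (0.12), and Ugcg to Plekhg6 (0.09), Gm15987 (0.12) and Zswim4 (0.13). Elovl4 was nearest to Camsap3 (RMS 0.07), Map7 (0.09) and Arhgef5 (0.09), and Abhd5 to Slc25a17, Adrm1 and Flad1, each at 0.10.

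Within the 10 genes, likeness was uneven. Pnpla1 and Cers3 were each the nearest member to the other (RMS 0.14, rank 10 of 16391 from either side), and Pnpla1 was also the nearest member to Abca12 (0.16) and Aloxe3 (0.15). Elovl4 and Abhd5, which had the smallest rises, were nearest to each other at an RMS of 0.31, at ranks 702 and 2186. Many genes outside the 10 were therefore closer to Elovl4 and Abhd5 than any of the other 9 were. Sdr9c7 was the farthest from its nearest member, Alox12b (RMS 0.34), though at rank 64.

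RefSeq promoter windows (GRCm38.p6, 250 bases before to 50 after the start) were matched for 9 of the 10 genes, all but Aloxe3. The number of CpG dinucleotides in the window set 3 genes apart: Ugcg had 53, Elovl4 35 and Abhd5 32, whereas the other 6 had between 2 (Sdr9c7) and 15 (Alox12b), against a median of 7 over 32851 windows. All 150 bases before the RefSeq start of Ugcg lie within the gene's own M21 exons, so that its count is of sequence inside the annotated gene. These 3 were the genes with the smallest rises in IMQ skin of the 9, with log2 fold changes of 1.05 to 2.70, and the other 6 had 2.81 to 4.35. The ranges overlapped in LYS against control (0.31 to 1.85 for the 3, 1.83 to 3.17 for the 6) and in LYS against IMQ (-1.02 to -0.64 and -1.14 to -0.87). The split at over 20 CpG was chosen after these values were seen. Over all genes tested that had a window, 23.6% of 5550 genes with over 20 CpG and 23.9% of 6380 genes with at most 20 were called higher in IMQ skin, and 12.3% of 5558 and 17.1% of 6413 in LYS skin against control. To show the contrast, the 150 bases before the start are printed 5′ to 3′ on the gene's own strand, with CG in capitals, for the 2 genes with the largest and the 2 with the smallest rises among windows with at most 20 bases in the gene's own annotated exons. They are chr10:127898385-127898534 (plus strand, 17 bases in the first exon of M21) for Sdr9c7, chr1:71414911-71415060 (minus strand) for Abca12, chr9:83806306-83806455 (minus strand) for Elovl4 and chr9:122351466-122351615 (plus strand, 8 bases in the first exon of M21) for Abhd5.
Sdr9c7: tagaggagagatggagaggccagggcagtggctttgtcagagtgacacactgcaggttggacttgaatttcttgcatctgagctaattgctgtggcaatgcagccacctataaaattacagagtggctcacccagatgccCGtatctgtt
Abca12: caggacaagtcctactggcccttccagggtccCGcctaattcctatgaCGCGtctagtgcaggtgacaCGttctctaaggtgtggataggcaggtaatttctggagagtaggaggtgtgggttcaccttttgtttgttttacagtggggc
Elovl4: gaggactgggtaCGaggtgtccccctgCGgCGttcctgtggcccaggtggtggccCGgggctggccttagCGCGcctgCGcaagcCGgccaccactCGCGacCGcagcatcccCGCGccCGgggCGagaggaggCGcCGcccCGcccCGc
Abhd5: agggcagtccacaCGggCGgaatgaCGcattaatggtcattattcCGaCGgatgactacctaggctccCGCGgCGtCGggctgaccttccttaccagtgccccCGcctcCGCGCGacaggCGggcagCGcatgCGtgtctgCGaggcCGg
In these stretches there was 1 CG for Sdr9c7 and 4 for Abca12, against 19 for Elovl4 and 18 for Abhd5. Alox12b rose more than Abca12, but 83 bases of its stretch lie in its own exons, so that it was not printed. That stretch held 10 CG. The 4 sets of letters searched on both strands in the 9 windows were rarely found. TGANTCA (AP-1) and AACCNGTT (grainyhead-like) were in none of the 9, and in 7.81% and 2.09% of all windows. TTGCNNAA (C/EBP) was in the window of Pnpla1 (10.8% of all windows), and AGGTCA (nuclear receptor half-site) in those of Cers3 and Abhd5 (16.3% of all windows). None of these matches overlapped another. A match describes the letters of the window and not a bound site.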

How the data were processed

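Count and FPKM values per gene were deposited by the authors in a single table; the submitters' processing notes name HISAT2, HTSeq 0.13.5 and GRCm38. The deposited FPKM were computed by the authors with 1 length per gene, equal to the GENCODE M21 exon length within 0.5 bases for 98.4% of 29128 genes. Here edgeR 4.0.16 (R 4.3.3) was run on the counts as deposited: filterByExpr, TMM scaling, the quasi-likelihood test on the 6 libraries of each comparison, and Benjamini-Hochberg adjustment over all genes tested. Intervals are 95% intervals from the quasi-likelihood fit. CPM were scaled over all 9 libraries. DESeq2 1.42.0, RLE scaling, library totals alone, no filter on low counts, a single fit of all 9 libraries, a log2 fold change over 1, the replicate number as a block, and leaving out each library were tried as alternatives. Figures and motif searches used Python 3.11.15 and matplotlib 3.10.9. Named genes were the 10 members; in each pathway list the called genes with the 2 largest rises and the 2 largest falls in IMQ against control among those with a mean of at least 1 CPM, and direct partners of members; the 3 nearest genes by profile; and marker lists as counts and sums. The genes around the lipoxygenase pair, Krt2, Krt5, Krt15, Fabp4, Gata3, the leukocyte and sebaceous gland markers and the other ceramide synthases were named after their values were seen. The members and lists were chosen with earlier results of these data known. The study took 3 skin tissues a group at random and calls the samples biological duplicates, without saying whether each came from a separate mouse; p-values then measure only the spread between these samples.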

Additional observations from a re-analysis of the deposited data

How the results depend on the processing

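The call of all 10 genes in IMQ against control, and of 8 of 10 in LYS against control, was the same in every alternative run. In LYS against IMQ, where the edgeR fit of 6 libraries called 0 of 10 genes and 0 of all genes, DESeq2 called 9 and 3313, no filter on low counts 8 and 2419, and a single fit of all 9 libraries 9 and 3040. RLE scaling, library totals alone and a log2 fold change over 1 called 0. Leaving out each library in turn gave 0 to 10 of the 10 genes and 0 to 4262 of all genes, with LYS 1 and IMQ 1 as the libraries whose absence gave calls (10 and 4262 without LYS 1, 6 and 1873 without IMQ 1). In LYS against control, the count of all genes called, 4476, went to 2910 at a log2 fold change over 1 and ranged from 2579 (without control 1) to 5072 (without LYS 3) with a library left out (2947 without control 2, 2926 without LYS 2). The cause was not tested. No fold change of the 10 genes changed sign in any alternative. With library totals alone the median of all genes in IMQ against control went from -0.06 to -0.51 and that of the 10 genes from 3.26 to 2.79, and the split of calls went from 3854 higher and 4291 lower to 2390 higher and 6854 lower; in LYS against control it went from 2412 and 2064 to 1917 and 2706. In LYS against IMQ the same scaling moved the median of all genes from 0.04 to 0.29 and that of the 10 genes from -1.06 to -0.80. Abhd5 went from -0.64 to -0.39 there, and from 1.05 to 0.60 in IMQ against control, just over the limit of 0.58. With the replicate number as a block (replicate block), 8044 genes were called in IMQ against control, 0 in LYS against IMQ and 3126 in LYS against control, with the same 10, 0 and 8 of the 10 genes. Deviations of same-numbered libraries correlated at -0.46 to 0.20. In 3 of 18 cases a library correlated best with that of its own number, all of them in IMQ against control. These values did not show that the numbers pair the samples, and with 3 libraries a group they cannot exclude it. Counts of the 10 genes were at least 268 in each library, so that spread between libraries, not depth, limits these values.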
